A study of Mus musculus with 12 samples.

Results

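The genes described here are 8 genes of the osteoclast lineage, chosen by name: Tnfrsf11a, Itgb3, Dcstamp, Ocstamp, Atp6v0d2, Car2, Acp5 and Ctsk. All 8 were found among the 2038 genes that the authors' 3 tables of library values hold. RNA was sequenced from monocytes that were taken from mouse bone marrow, purified by magnetic sorting and kept in M-CSF at 20 ng/mL, a growth factor for monocytes and macrophages. There were 4 groups of 3 replicates. They were control cells at 12 h, cells given 100 U of the type I interferon IFNβ at 12 h, control cells at 24 h and cells with IFNβ at 24 h. All groups received M-CSF, and the labels name no RANK ligand. No strain, age or sex is used here, and the labels do not tie replicates to different animals, hence p-values reflect only how far these samples spread, and that spread may be technical.

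Osteoclasts are multinucleated cells that dissolve bone, and they form from cells of the monocyte lineage. M-CSF keeps the precursors alive, and RANK ligand, which binds the receptor RANK, drives them to become osteoclasts. The precursors then fuse, attach to bone through an integrin, pump acid onto it and digest its matrix with secreted enzymes. Type I interferon is known to restrain osteoclast formation. Several of these genes are also active in macrophages that never become osteoclasts.

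Values are normalized counts from the authors, comparable between the libraries of 1 table. A gene entered a table if the authors' adjusted p was under 0.05 and it differed by at least 1 on the log2 scale in either direction, so a gene outside a table is not shown to be unchanged. The depth of the libraries is unknown. Of the 8 genes, 5 were in 1 table, 2 (Car2 and Ctsk) in both time tables, and 1, Atp6v0d2, in all 3. The deposited table of IFNβ against control at 24 h holds 5 genes, and 0 of them is among the 8. Differences were taken as log2(normalized count + 1), with a standard error (SE) from limma, a linear model fitted to all genes of a table. They understate changes of genes with few counts.

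The label of the cells could be checked only on markers that the tables list. Of 8 monocyte and macrophage markers, 2 were listed for IFNβ at 12 h and 1 in each time table. Ly6c2, the surface antigen of classical monocytes, ranged from 23140 to 23908 in the 12 h controls and from 163254 to 208663 with IFNβ. Mertk, a receptor with which macrophages take up dying cells, was at 259 ± 71.0 and 119 ± 55.6 there (SD, n = 3; log2 difference -1.19 ± 0.35), which did not pass limma (adjusted p = 0.0648) and passed with a replicate block (0.00710). Over time Mertk rose by 1.80 ± 0.28 in controls and by 3.26 ± 0.32 under IFNβ (limma, adjusted p = 0.0144 and 3.47e-04). Markers of other cell types were listed as well. In the order of IFNβ at 12 h, then time in controls, then time under IFNβ, the tables held 0, 1 and 0 of 6 megakaryocyte and platelet markers, 1, 1 and 1 of 8 erythroid markers, 0, 1 and 0 of 8 osteoblast and stromal markers, 3, 2 and 2 of 7 dendritic cell markers, and 0, 1 and 0 of 8 neutrophil markers. The 3 dendritic cell markers listed at 12 h all passed limma, in both directions. With IFNβ Cd209a fell from 278 ± 21.6 to 9.31 ± 6.46, Flt3 fell from 1118 ± 82.8 to 445 ± 127, and Xcr1 rose from 14.1 ± 10.2 to 213 ± 53.5. Their part in the values of the 8 genes was not tested.

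The first comparison asks what 12 h of IFNβ did to these genes. Atp6v0d2, Itgb3 and Acp5 were lower with IFNβ, and the receptor gene Tnfrsf11a was higher. The falls ranged from about 2.22-fold for Itgb3 to 4.08-fold for Atp6v0d2 between group means, and the rise of Tnfrsf11a was 3.63-fold. The authors' deposited table listed 4 of the 8 genes, beside 8.86% of the genes tested. Of these 1 was higher, beside 5.7% of the genes tested, and 3 were lower, beside 3.17%. With limma, which was fitted to the listed genes only, all 4 passed an adjusted p under 0.05. Beside them 1209 of the 1388 genes listed passed, which is 7.72% of the genes tested. All 4 also did with a replicate block, beside 1230 of the genes listed (7.85% of those tested). In all 4 the groups did not overlap, as in 98.3% of the genes listed. The 8 genes were chosen with such results known, so nothing is read from these shares.

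Tnfrsf11a (ENSMUSG00000026321.7; chromosome 1, 105780718 to 105847981, plus strand, in GRCm38) encodes RANK, the receptor that receives the osteoclast signal. It was at 545, 356 and 347 normalized counts in control replicates 1, 2 and 3, and at 2266, 1002 and 1257 with IFNβ. Replicate 1 was the highest in both groups, and the lowest IFNβ library lay above the highest control. The log2 difference was 1.80 ± 0.29 (SE; limma, adjusted p = 9.29e-04).

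Itgb3 (ENSMUSG00000020689.4; chromosome 11, 104608000 to 104670476, plus strand) encodes the integrin β subunit that pairs with integrin αv to anchor osteoclasts to bone, and platelets carry it too. Its controls were even, at 3396, 4006 and 3814 normalized counts, and the IFNβ libraries were at 1096, 1899 and 2047. The groups did not overlap, and IFNβ replicate 1 was the lowest of the 6 libraries. The log2 difference was -1.20 ± 0.22 (limma, adjusted p = 0.00283). With a replicate block and no variance trend the call was lost (0.0535), and over 12 alternatives the adjusted p ranged from 2.51e-04 to 0.0535. None of the 6 megakaryocyte and platelet markers was listed in this table, so their levels with IFNβ are not known. One of them, Ppbp, was listed over time in controls, at 223, 353 and 435 normalized counts in the same 12 h control libraries. The part of such cells in the Itgb3 values was not tested.

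Acp5 (ENSMUSG00000001348.15; chromosome 9, 22126727 to 22135711, minus strand) encodes tartrate-resistant acid phosphatase, the enzyme stained to identify osteoclasts. It fell from 407, 373 and 418 normalized counts in the controls to 166, 222 and 140 with IFNβ. All IFNβ libraries were below all controls, with a log2 difference of -1.20 ± 0.24 (limma, adjusted p = 0.00508). A replicate block with no variance trend ended this call too (0.0632; range over 12 alternatives 4.51e-04 to 0.0632). A noncoding gene, 6530413G14Rik, overlaps Acp5 on the opposite strand. With no strand setting stated for the counting, reads from the stretch that these genes share cannot be told apart.

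Atp6v0d2 (ENSMUSG00000028238.6; chromosome 4, 19876841 to 19922605, minus strand) encodes a subunit of the proton pump that acidifies the bone surface, and its product also takes part in cell fusion. Controls were at 519, 696 and 1348 normalized counts, and IFNβ libraries at 110, 153 and 366. Replicate 3 was the highest in both groups, which makes the spread within a group wide. Compared number by number the change was even, at -2.23, -2.18 and -1.88 on the log2 scale. The fitted difference was -2.10 ± 0.42 (limma, adjusted p = 0.00561), and -2.10 ± 0.18 when replicate number was a block. Without IFNβ replicate 1, IFNβ replicate 2 or a variance trend the call was lost (limma, adjusted p = 0.131, 0.0586 and 0.0703). Over 12 alternatives the adjusted p ranged from 1.90e-05 to 0.131. As in every bulk sample, fewer cells with the gene and less of its RNA per cell cannot be told apart.

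**Figure D1:**
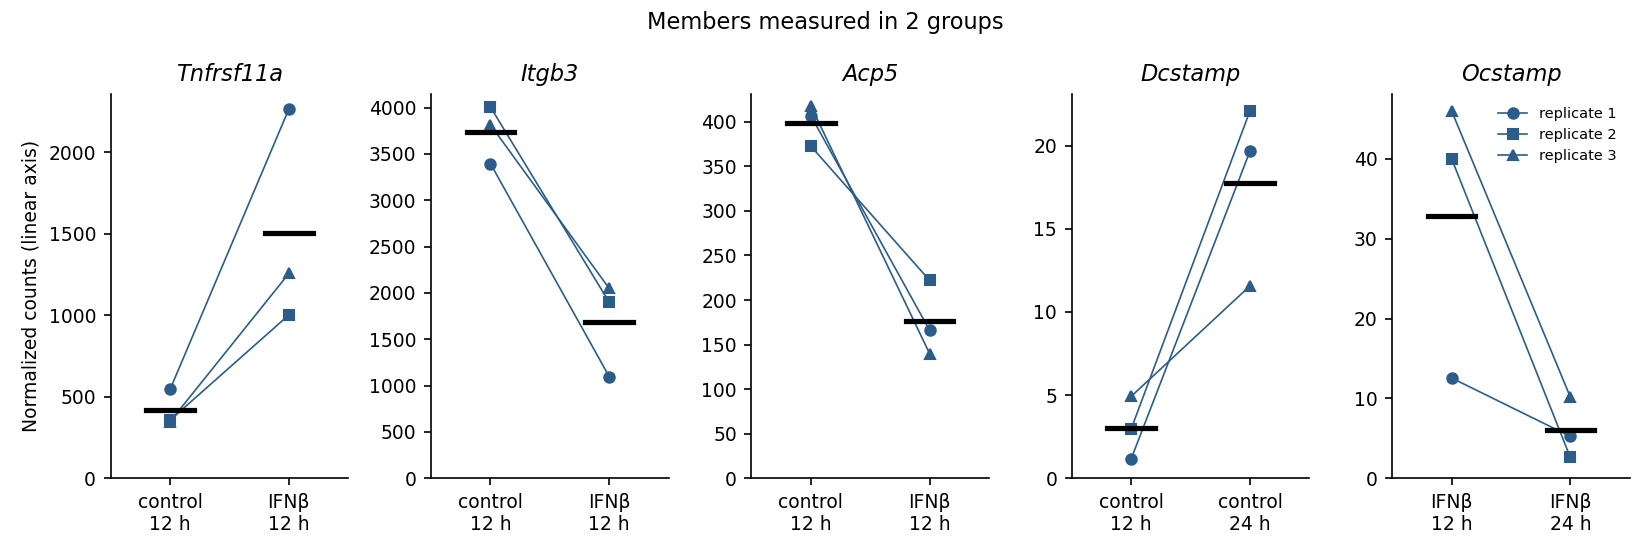
Normalized counts (linear axis from 0) of the 5 members that 1 table holds, for each library of the groups named below each panel. Symbols are replicates 1 to 3, thin lines join libraries of the same replicate number and bars are group means; in every panel the groups do not overlap, and Dcstamp and Ocstamp stay below 50 counts.

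The sequences before the start sites are shown for the 3 members, with 5 start sites, for which the RefSeq promoter table (GRCm38.p6) has an entry, since one of them rose and one fell with IFNβ and one rose with time. Atp6v0d2, Car2, Dcstamp, Itgb3 and Ocstamp have no entry there. Each line gives the 250 bases before the start, 5′ to 3′ along the gene. Capitals mark matches, on either strand, to one of 6 motifs: an AP-1 site (TGANTCA), an NFAT core (GGAAAA), a PU.1 core (GAGGAA), a MITF and TFE box (TCANGTGA), an interferon-stimulated response element (GAAA and again GAAA, with NN between) and a gamma-activated site (TTCNNNGAA). Matches are described only, and none was tested as a site. Tnfrsf11a lies at chr1:105780473-105780722 on the plus strand, Ctsk at chr3:95498960-95499209 on the plus strand, and Acp5 start sites 1 and 3 at chr9:22135747-22135996 and chr9:22130599-22130848 on the minus strand.
Tnfrsf11a: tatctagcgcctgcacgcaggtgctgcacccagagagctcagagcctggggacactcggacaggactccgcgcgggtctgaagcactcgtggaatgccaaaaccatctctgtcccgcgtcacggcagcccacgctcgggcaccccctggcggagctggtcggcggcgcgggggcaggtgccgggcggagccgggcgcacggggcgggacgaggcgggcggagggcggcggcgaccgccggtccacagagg
Ctsk: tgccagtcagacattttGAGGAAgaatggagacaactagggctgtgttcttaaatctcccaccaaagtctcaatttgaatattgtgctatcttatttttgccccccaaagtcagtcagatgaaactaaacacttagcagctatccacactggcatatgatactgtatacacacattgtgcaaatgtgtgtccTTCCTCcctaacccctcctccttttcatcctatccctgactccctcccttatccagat
Acp5 start 1: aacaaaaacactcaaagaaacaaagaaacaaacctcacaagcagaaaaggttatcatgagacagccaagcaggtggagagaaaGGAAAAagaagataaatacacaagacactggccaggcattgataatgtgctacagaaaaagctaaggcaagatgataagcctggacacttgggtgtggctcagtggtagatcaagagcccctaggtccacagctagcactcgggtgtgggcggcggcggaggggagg
Acp5 start 3: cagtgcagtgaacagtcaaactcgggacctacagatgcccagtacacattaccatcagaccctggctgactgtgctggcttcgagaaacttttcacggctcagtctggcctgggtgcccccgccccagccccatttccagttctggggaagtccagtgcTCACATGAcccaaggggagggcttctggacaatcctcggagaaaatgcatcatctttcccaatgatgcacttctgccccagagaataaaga
None of the 6 motifs was found in the Tnfrsf11a window. The Ctsk sequence has a PU.1 core beginning 233 bases before the start and another, read on the opposite strand, beginning 58 bases before it, and an NFAT core on the opposite strand begins 1 base before the start and runs past it. Acp5 has an NFAT core 167 bases before start 1 and a MITF and TFE box, on the opposite strand, 91 bases before start 3, and start 2, not printed, has none of the motifs. Over all 32851 promoter windows of 300 bases, 28.3% hold a PU.1 core, 23.4% an NFAT core, 4.18% a MITF and TFE box, 7.81% an AP-1 site, 3.44% an interferon-stimulated response element and 8.30% a gamma-activated site. PU.1, NFATc1 and MITF are transcription factors known to act in osteoclasts.

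The second comparison follows the control cells from 12 h to 24 h in M-CSF. Atp6v0d2 rose 7.20-fold between group means and the protease gene Ctsk 2.63-fold. Dcstamp was listed as higher and Car2 as lower. The authors' deposited table listed 4 of the 8 genes, beside 4.08% of the genes tested. Of these 3 were higher, beside 3.12%, and 1 was lower, beside 0.961%. With limma 2 of these 4 passed, beside 277 of the 645 genes listed (1.75% of those tested). With a replicate block 3 of the 4 passed, beside 473 of the genes listed (2.99% of those tested). In all 4 the groups did not overlap, as in 94.7% of the genes listed.

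Dcstamp (ENSMUSG00000022303.9; chromosome 15, 39745930 to 39760938, plus strand) encodes a membrane protein that osteoclast precursors need to fuse. It stood near the lower limit of counting, at 1.17, 2.97 and 4.92 normalized counts at 12 h and 19.7, 22.1 and 11.6 at 24 h. The groups did not overlap, but the differences between libraries of the same number were uneven, at 3.25, 2.54 and 1.09 on the log2 scale. The fitted difference of 2.29 ± 0.52 did not pass limma (adjusted p = 0.0699), nor with the replicate block (0.0644). The adjusted p from the authors' own deposited test was 0.00292.

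Atp6v0d2 went from 570, 784 and 1524 normalized counts at 12 h to 5836, 5339 and 9547 at 24 h. Replicate 3 was again the highest at both times, and the lowest 24 h library was above the highest 12 h library. The log2 difference was 2.92 ± 0.36 (limma, adjusted p = 0.00487). The call was lost when 24 h control replicate 3 was left out (adjusted p = 0.0515), with a range over 12 alternatives from 8.93e-06 to 0.0515.

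Car2 (ENSMUSG00000027562.12; chromosome 3, 14886273 to 14900770, plus strand) encodes the carbonic anhydrase that supplies protons to the osteoclast pump, and red blood cells hold much of it. Controls were at 432, 400 and 383 normalized counts at 12 h and at 239, 168 and 181 at 24 h, with no overlap. In the authors' own deposited test the adjusted p was 8.17e-05. The log2 difference of -1.06 ± 0.24 did not pass limma (adjusted p = 0.0700) and passed with a replicate block (-1.06 ± 0.18, adjusted p = 0.00869), but not with that block and no variance trend (0.138). Beside it, 1 of the 8 erythroid markers, the red cell anion exchanger gene Slc4a1, was listed, at 1093, 432 and 357 normalized counts at 12 h and 275, 133 and 40.1 at 24 h. Slc4a1 differed by -2.27 ± 0.65 (limma, adjusted p = 0.209, and 9.72e-04 with the block). The other 7 erythroid markers were not listed, and the part of such cells in the Car2 values was not tested.

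Ctsk (ENSMUSG00000028111.4; chromosome 3, 95499256 to 95509362, plus strand) encodes cathepsin K, the protease with which osteoclasts digest collagen. It was at 1091, 1135 and 1806 normalized counts at 12 h and at 3044, 3500 and 4042 at 24 h. Replicate 3 was the highest at both times and the groups did not overlap. The log2 difference was 1.42 ± 0.24 (limma, adjusted p = 0.0218). Leaving out any library but 12 h control replicate 3 lost the call, with limma adjusted p from 0.0549 to 0.155. Fitting no variance trend lost it too, without a replicate block (0.101) and with it (0.0952). Over 12 alternatives the adjusted p ranged from 2.20e-04 to 0.155.

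The third comparison follows the cells with IFNβ from 12 h to 24 h. Atp6v0d2 and Ctsk rose, 3.95-fold and 2.36-fold between group means, and Car2 fell 2.17-fold. Ocstamp was listed as lower. The authors' deposited table listed 4 of the 8 genes, beside 3.87% of the genes tested. Of these 2 were higher, beside 2.16%, and 2 were lower, beside 1.72%. With limma 3 of these 4 passed, beside 366 of the 602 genes listed (2.36% of those tested). With a replicate block all 4 passed, beside 570 of the genes listed (3.67% of those tested). In all 4 the groups did not overlap, as in 98.2% of the genes listed. When no variance trend was fitted, 0 of the 4 passed limma. How many of all listed genes passed in that setting was not counted, so this is not read as particular to the members. All 4 had an unadjusted p under 0.05 in that limma fit, but genes were listed for small p-values in these same libraries, so nothing is read from it. This comparison shares its 12 h IFNβ libraries with the first, and the second shares the 12 h controls with it.

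Ocstamp (ENSMUSG00000027670.4; chromosome 2, 165393760 to 165400405, minus strand) encodes a membrane protein that acts with DC-STAMP in fusion. It had few counts, at 12.6, 40.0 and 46.0 at 12 h with IFNβ and 5.23, 2.59 and 10.2 at 24 h. The lowest 12 h library was only a little above the highest 24 h library. In the authors' own deposited test Ocstamp had an adjusted p of 0.00590. Its log2 difference was -2.24 ± 0.61, which did not pass limma (adjusted p = 0.115) and passed with a replicate block (0.00116), but not with that block and no variance trend (0.150). Dcstamp and Ocstamp, both fusion genes, were listed in different tables, so their changes cannot be set side by side in the same cells.

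Atp6v0d2 went from 98.1, 135 and 329 normalized counts at 12 h to 537, 648 and 1036 at 24 h with IFNβ. The lowest 24 h library exceeded the highest at 12 h, and replicate 3 was the highest at both times. The log2 difference was 2.12 ± 0.40 (limma, adjusted p = 0.0156). The call was lost without 12 h IFNβ replicate 1, 24 h IFNβ replicate 2 or 24 h IFNβ replicate 3 (adjusted p = 0.120, 0.0539 and 0.138), and over 12 alternatives the adjusted p ranged from 7.97e-22 to 0.138.

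Ctsk was at 2074, 1460 and 2113 normalized counts at 12 h and 4495, 4073 and 4754 at 24 h. The difference was 1.25 ± 0.20 (limma, adjusted p = 0.00548), and the call was lost without 24 h IFNβ replicate 3 (0.0575; range over 12 alternatives 1.12e-12 to 0.0882). Car2 fell from 274, 307 and 237 to 104, 159 and 114, again without overlap. Its difference was -1.13 ± 0.26 (limma, adjusted p = 0.0487), close to the threshold, and 8 of 12 alternatives lost the call (range 1.40e-04 to 0.268), among them every library left out but 24 h IFNβ replicate 2. Slc4a1 was here too the 1 erythroid marker listed of 8, at 389, 157 and 186 at 12 h and 95.1, 25.6 and 40.8 at 24 h (-2.25 ± 0.48, limma, adjusted p = 0.0291), and its part in the Car2 values was not tested.

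**Figure D2:**
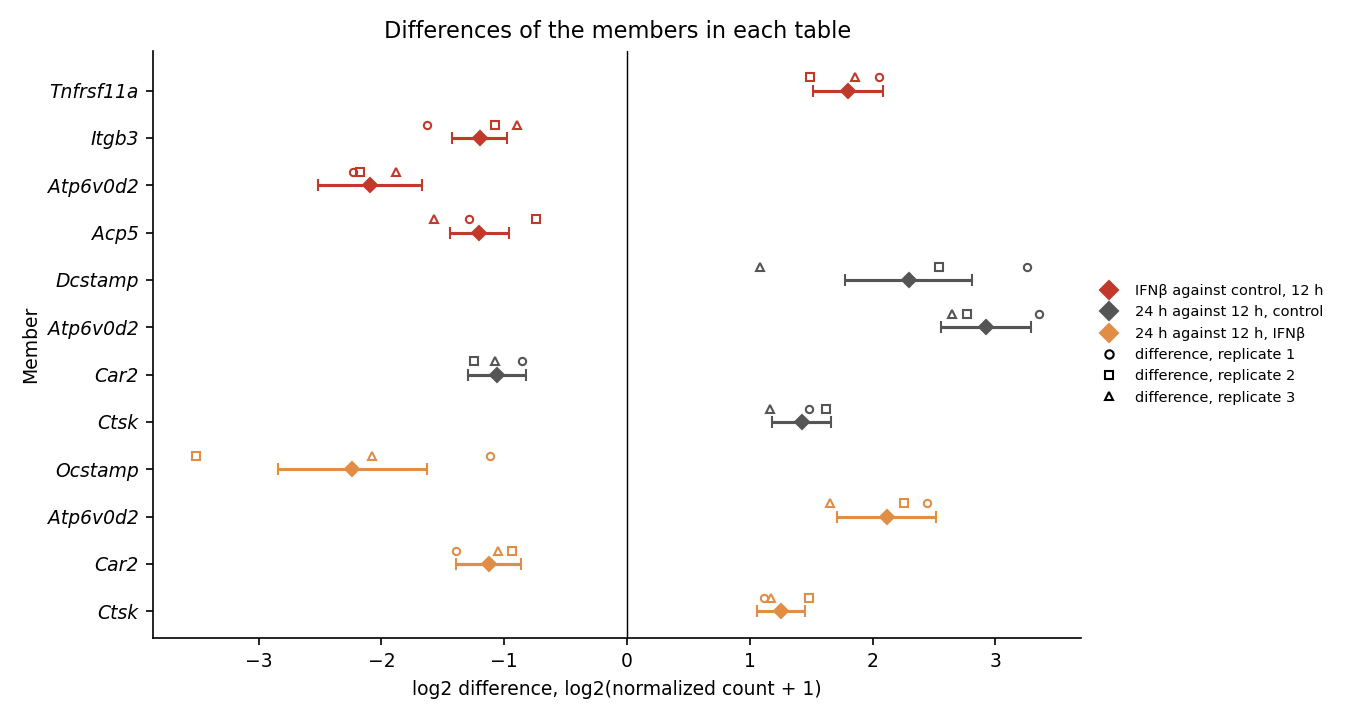
Log2 differences, on the log2(normalized count + 1) scale, of each member in each table that holds it. Diamonds with bars are limma's estimate ± SE and open symbols are the differences between libraries of the same replicate number. These run from -3.51 for Ocstamp to 3.35 for Atp6v0d2. All 12 estimates keep their sign in each of the 3 replicate numbers, as they must where the groups do not overlap.

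Atp6v0d2, Ctsk and Car2 were in both time tables, so their levels can be followed over all 4 groups. For this the time tables were brought to the scale of the 12 h table with the libraries they share, by factors of 0.894 without IFNβ and 1.12 with IFNβ. Tables were normalized separately, so levels across them are not tested. The 3 genes showed 3 patterns: Atp6v0d2 was lower with IFNβ at both times, Ctsk was higher with IFNβ at both times, and the Car2 groups overlapped at both times.

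On this scale Atp6v0d2 averaged 858 ± 448 (SD, n = 3) in controls and 210 ± 139 with IFNβ at 12 h. At 24 h it averaged 6177 ± 2057 in controls and 828 ± 293 with IFNβ. The controls were 4.09-fold higher than the IFNβ cells at 12 h and 7.46-fold higher at 24 h, without overlap at either time. By replicate number the log2 difference was -2.21, -2.21 and -1.89 at 12 h and -3.12, -2.72 and -2.88 at 24 h. IFNβ cells at 24 h were thus near the level of controls at 12 h, and their ranges, 600 to 1158 and 510 to 1363, overlapped. The authors' own list of 5 genes for IFNβ against control at 24 h does not hold Atp6v0d2. Why it is absent there was not tested, so the 24 h difference rests on the rescaled values only.

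Ctsk went the other way under IFNβ. It averaged 1202 ± 358 in controls and 2104 ± 409 with IFNβ at 12 h, and 3156 ± 447 against 4964 ± 385 at 24 h. The IFNβ cells were 1.75-fold higher at 12 h and 1.57-fold higher at 24 h and the groups did not overlap at either time. At 12 h the gap was narrow, with the highest control at 1615 and the lowest IFNβ library at 1633. The authors listed Ctsk for IFNβ against control at neither time, so these differences rest on the rescaled values only and were not tested. Car2 averaged 362 ± 22.6 in controls and 305 ± 38.7 with IFNβ at 12 h, and 175 ± 33.8 and 141 ± 33.1 at 24 h.

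Whether the time change itself differed with IFNβ was tested for the 224 genes in both time tables. None of the 3 members passed limma or had an unadjusted p under 0.05, where 8.04% of the 224 passed. With a replicate block 1 passed, Atp6v0d2, where 20.1% did. Atp6v0d2 rose by 0.81 ± 0.62 less on the log2 scale with IFNβ than without in the fit without a block (a difference of -0.81, 95% interval -2.15 to 0.53, adjusted p = 0.579). The block narrowed this to -0.81 ± 0.26 (-1.36 to -0.26, adjusted p = 0.0368). That call was lost with the block and no variance trend (0.110), and over 17 alternatives the adjusted p ranged from 0.0368 to 0.860. For Ctsk the difference was -0.17 (95% interval -0.86 to 0.53) and for Car2 -0.07 (-0.81 to 0.67), so neither is shown to change alike or unlike with time in the presence of IFNβ.

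**Figure D3:**
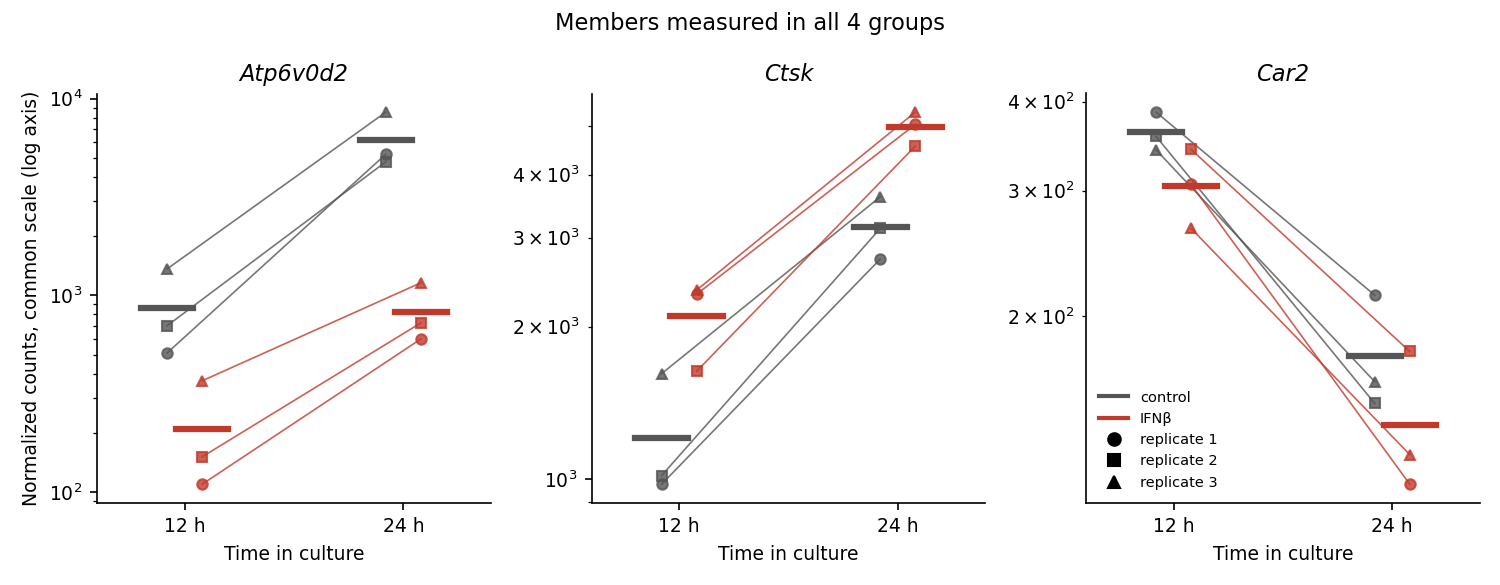
Normalized counts (log axis, scale of the 12 h table) of Atp6v0d2, Ctsk and Car2 in control (grey) and IFNβ (red) cells at 12 h and 24 h. Symbols are replicates, thin lines join libraries of the same replicate number and bars are group means; replicate 3 is the highest in 4 of 4 groups for Atp6v0d2 and for Ctsk and in 0 of 4 for Car2.

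Levels of different genes were compared per kilobase of exon in the GENCODE M21 annotation, on the scale of the 12 h table and without a test. In the 12 h controls Ctsk (795 ± 237 normalized counts per kilobase) and Itgb3 (634 ± 52.9) were the highest, and their libraries overlapped. They were followed by Atp6v0d2 (315 ± 161) and Acp5 (197 ± 11.6), which overlapped with each other, then Car2 (150 ± 9.35), Tnfrsf11a (69.5 ± 18.6) and Dcstamp (1.01 ± 0.63), each separate from the gene before it. With IFNβ at 12 h Ctsk led alone at 1392 ± 271. Itgb3 (285 ± 86.7) and Tnfrsf11a (252 ± 112) then overlapped, and Acp5 (86.7 ± 20.7) and Atp6v0d2 (77.1 ± 50.5) overlapped, with Car2 (126 ± 16.0) between the pairs, the highest Atp6v0d2 library inside its range, and Ocstamp (10.05 ± 5.46) last. At 24 h Atp6v0d2 (2274 ± 757) and Ctsk (2087 ± 295) overlapped at the top in controls, above Car2 (72.4 ± 14.0) and Dcstamp (5.97 ± 1.85). With IFNβ at 24 h Ctsk (3283 ± 254) stood above Atp6v0d2 (305 ± 108), Car2 (58.0 ± 13.7) and Ocstamp (1.83 ± 1.17), all separate. Dcstamp and Ocstamp were thus the lowest of the members that have values, in each group where they were listed. No group has values for all members or for both of these genes, and members without values are not ranked.

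Other genes of the osteoclast pathway were taken from 7 lists with 68 genes, none of them a member. Of these 14 were in at least 1 table and 54 in none, among the latter Nfatc1, the master regulator of osteoclasts, Fos, Traf6, Csf1r and Irf8. At 12 h of IFNβ 8 of 68 were listed, 5 higher and 3 lower (11.8%, beside 8.86% of all genes tested), and 7 passed limma. Over time without IFNβ 3 of 68 were listed, all higher (4.41%, beside 4.08%), and 2 passed. Over time with IFNβ 4 of 68 were listed, 3 higher and 1 lower (5.88%, beside 3.87%), and 3 passed. These shares lie near the background.

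Among 12 receptors and ligands, IFNβ at 12 h went with a rise of Csf1, the gene of M-CSF itself, from 1328 ± 213 to 2758 ± 182 (1.06 ± 0.17; limma, adjusted p = 8.27e-04). Trem2, a receptor that signals through an adaptor shared with osteoclast receptors, fell from 2613 ± 726 to 1302 ± 106 (-0.97 ± 0.20; adjusted p = 0.00714, limma). Over time with IFNβ Trem2 rose from 1164 ± 84.5 to 3540 ± 320 (1.60 ± 0.18). Among 18 signalling and transcription genes, Ppargc1b, a coactivator known to raise mitochondrial content in osteoclasts, fell at 12 h from 1030 ± 85.5 to 310 ± 28.7 (-1.73 ± 0.19), and Jun, an AP-1 subunit, rose from 3041 ± 335 to 6325 ± 885 (1.05 ± 0.17). Relb, an NF-κB subunit, fell over time with IFNβ from 2471 ± 342 to 1120 ± 123 (-1.14 ± 0.19). Of 8 inhibitors, 2 rose at 12 h: Tnfaip3, which restrains NF-κB signalling, by 1.09 ± 0.16, and the inhibitory receptor gene Lilrb4a by 1.01 ± 0.20.

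The effector lists held fewer genes. Spp1, which encodes the bone matrix protein osteopontin, was the 1 of 8 adhesion genes listed at 12 h and rose from 5211 ± 2478 to 12245 ± 1460 (1.32 ± 0.26; limma, adjusted p = 0.00472). This is opposite to Itgb3, whose integrin binds osteopontin. Sh3pxd2a, a podosome adaptor gene and the 1 of 6 fusion genes listed, was at -1.23 ± 0.36 and did not pass (adjusted p = 0.0634). Of 5 proteases, Ctsb and Ctsd rose over time in controls by 1.24 ± 0.22 and 1.15 ± 0.22. Mmp9 was at 1.52 ± 0.37 there, which did not pass limma (adjusted p = 0.107) and passed with a replicate block (4.18e-05). It went from 3930, 9436 and 5131 normalized counts to 11671, 26072 and 14756. Beside it, Retnlg, the 1 neutrophil marker listed of 8, went from 2303, 5331 and 2620 to 4823, 13188 and 6188. Replicate 2 was the highest at both times for both genes, and the part of neutrophils in the Mmp9 values was not tested. Ctsl rose over time with IFNβ, from 3189 ± 124 to 10145 ± 852 (1.67 ± 0.17). Of 11 acid secretion genes 1 was listed, Slc9b2, at 2.28 ± 1.42 and 12.6 ± 6.94 over time with IFNβ. It did not pass limma (adjusted p = 0.172) and passed with the block (0.0449).

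**Figure D4:**
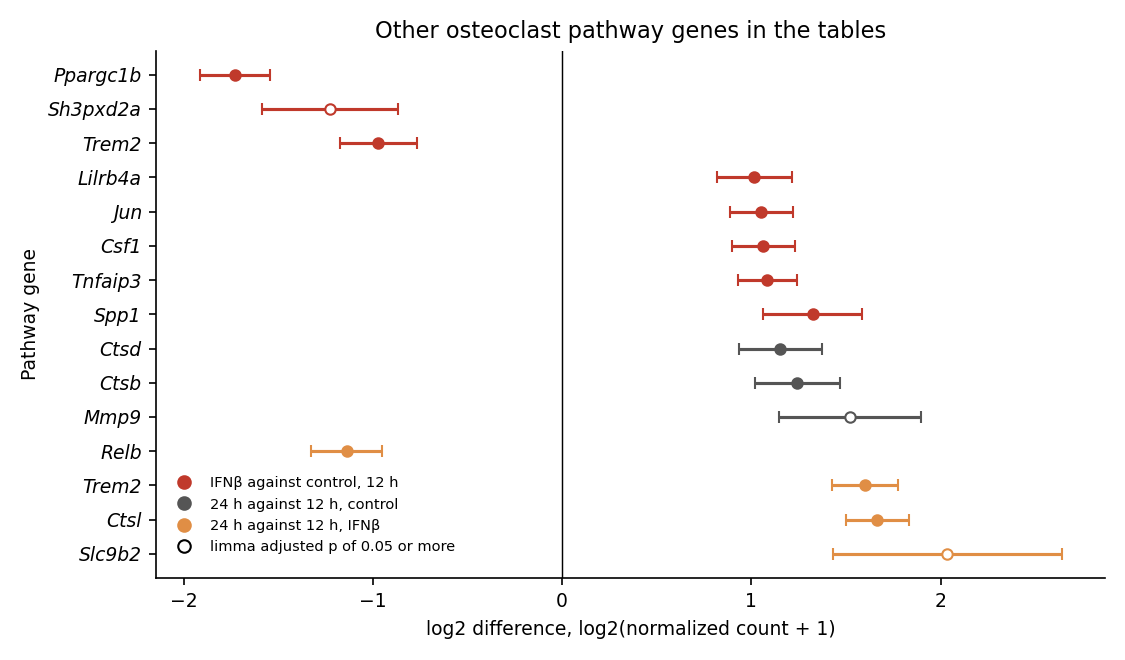
Log2 differences ± SE (limma, log2(normalized count + 1) scale) of the pathway genes that a table lists, by comparison; filled points passed an adjusted p under 0.05. For IFNβ at 12 h 5 genes are higher and 3 lower, and over time all but Relb are higher.

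The genes with the most similar pattern were found by the root mean square difference in log2 change over the libraries of the tables that hold the member. For Tnfrsf11a they were Cdk14 (0.13) and Pkd1l2 (0.17), for Itgb3 Il27ra (0.10) and Ppp2r3a (0.11), and for Acp5 Slc25a42 (0.08) and Mgst3 (0.11), each over 6 libraries. For Ctsk they were Slc27a1 (0.16) and Nckap5l (0.19), and for Car2 Phgdh (0.15) and Plekha6 (0.21), each over 12 libraries. For Atp6v0d2 they were Fabp4 (0.40) and Fscn1 (0.45), over 18 values of 12 libraries. Dcstamp (Sdc1 at 0.26, Cdk18 at 0.33) and Ocstamp (Tg at 0.57, Jchain at 0.61) had few counts. The candidates numbered 1048 for Tnfrsf11a, Itgb3 and Acp5, 409 for Dcstamp, 414 for Ocstamp, 145 for Ctsk and Car2 and 53 for Atp6v0d2, so these distances are not compared between members.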

How the data were processed

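RNA from 12 cultures of mouse bone marrow monocytes was sequenced. Per the submitters' processing notes the tools were bcl2fastq, HISAT2 2.2.1 and edgeR 3.3.3, with the GRCm38 build. The authors deposited 3 tables of library values, read as a signal (normalized counts, as judged from the values), beside their log2 fold changes and their raw and adjusted p-value columns, per the file headers. Low values were whole multiples of 1 read in only some libraries, so reads were not recovered and depth is unknown. For the counting tool, annotation and strand setting, nothing is given in the sources used here. Coordinates are from GENCODE M21 (GRCm38).

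Groups and replicate numbers came from the sample labels. The members and gene lists were chosen with earlier results of these data known. limma 3.58.1 (R 4.3.3) was fitted to log2(value + 1) over all genes of a table, with a variance trend and Benjamini-Hochberg adjustment over the 15661, 15822 and 15541 genes tested, a number worked out from the deposited p-values, and for the difference of time changes over the 224 genes in both time tables. The tables hold genes chosen for their small p-values, so these fits describe them and are no independent test. Same-numbered samples deviated in the same direction in all 9 pairs (r across genes, from 0.166 to 0.479, against -0.406 to 0.140 for different numbers). Deviations were taken from group means, so a positive r for the same number lowers the r of different numbers. The 12 h libraries recur between tables, so the 9 pairs are not independent. That the number pairs the samples is thus an assumption. With the block, the fit over time with IFNβ borrowed its spread almost wholly from the other genes, which makes its p-values very small. All members were named. Pathway genes were named if listed, at most 4 per list and table, and similar genes were the 2 nearest with a mean value of at least 50. The scripts were tested on simulated data with known changes. That run adjusted over the genes of a table only and had no replicate effect, so it does not vouch for the calls given here. Python 3.11.15 with numpy 2.4.6, pandas 2.3.3 and matplotlib 3.10.9 was used.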

Additional observations from a re-analysis of the deposited data

Results flagged for a closer look

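Atp6v0d2 differed between the groups in its change from 12 h to 24 h when the replicate number was a block: the log2 change with IFNβ minus that without was -0.81 ± 0.26 (limma, adjusted p = 0.0368 over 224 genes), and without the block -0.81 ± 0.62 (adjusted p = 0.579). The blocked call was lost when no variance trend was fitted (adjusted p = 0.110). The rise was smaller with IFNβ in all 3 replicate numbers, at 2.44, 2.25 and 1.65 against 3.35, 2.77 and 2.65.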

How the results depend on the processing

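All 12 log2 differences of members within a table kept their sign under all alternatives run. The groups overlapped in none of them, so leaving out 1 library could not change a sign, and this is no support. Tnfrsf11a was called under all 12 of its alternatives. Dcstamp passed under 1 of 12, adjustment over the table's genes only (0.00285). For IFNβ at 12 h 4 members were called, and 3 without a variance trend. The count was 2 with a block and no variance trend (chosen after seeing the data) or at an authors' absolute log2 fold change of at least 1.5. For time without IFNβ 2 were called, 1 without a variance trend, 1 with a block and no trend, 4 when adjusted over the table's genes only, and 4 at an authors' adjusted p under 0.01. For time with IFNβ 3 were called, and 0 of 4 without a variance trend, with or without the block. All 4 had an unadjusted limma p under 0.05 there, but they were listed for small p-values in the same libraries, so this is no support. For the difference of time changes 0 of 3 were called, 1 with a replicate block and 0 with a block and no trend. Leaving out 1 library gave 3 to 4, 0 to 2, 0 to 2 and 0 calls in that order: 0 came without 24 h control replicate 3 and without 24 h IFNβ replicate 3. Under the same omissions the Car2 difference of time changes ran from -0.25 to 0.0816 and changed sign. Pairing by the replicate number gave 4, 3, 4 and 1 calls. Passing genes among all those listed were counted only for the main fit and the replicate block. Member counts under the other alternatives therefore have no share to set beside them. Listed genes limit every comparison, and Dcstamp and Ocstamp rest on few counts.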
